A study of Homo sapiens with 6 samples.

Results

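The genes described here are 10 ERK feedback regulators and ETV factors, chosen by symbol from the 23346 genes of the count table: DUSP4, DUSP5, DUSP6, SPRY1, SPRY2, SPRY4, SPRED1, SPRED2, ETV4 and ETV5. Each of the 10 was found in the table. They were measured by RNA-seq of poly(A) RNA from BT549, an established breast cancer cell line of mesenchymal type, labelled as wild type. Of the 6 libraries, 3 came from cells given BNC2 siRNA and 3 from cells given a negative control (NC) siRNA, each at 20 nM, and RNA was prepared 6 d later. The comparison asks which genes depend on BNC2, a zinc-finger protein thought to act as a transcription factor. All libraries are of 1 cell line, knockdown was transient and partial, and BNC2 siRNA was a mix of 3 duplexes, so single duplexes cannot be told apart.

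ERK is the last kinase of the RAS-RAF-MEK-ERK cascade, which carries growth factor signals to the nucleus. Active ERK switches on genes that dampen the cascade, so their RNA is widely used as a readout of its output. DUSP4, DUSP5 and DUSP6 are phosphatases that take phosphate off ERK. DUSP4 and DUSP5 are nuclear and DUSP6 is cytoplasmic. Sprouty and SPRED proteins act upstream of ERK and hold back RAS and RAF signalling, SPRED proteins by bringing neurofibromin (NF1) to RAS. ETV4 and ETV5 are ETS-family transcription factors of the PEA3 group, which are induced downstream of FGF and ERK signalling. In breast cancer the ERK cascade is linked to proliferation and invasion.

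The duplexes define the comparison and are given here as sense strands, 5′ to 3′, with the part shared with the target in capitals (for the control, its core) and the overhang in lower case.
BNC2 siRNA (1): GACUUGUGAUCAGUGUAAAtt
BNC2 siRNA (2): GGAAGACAUUCUAUGACAAtt
BNC2 siRNA (3): CCUCUGUACGAAGCCGAAAtt
NC siRNA: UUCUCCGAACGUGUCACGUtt
The 19-base cores of the BNC2 duplexes matched coding exons of BNC2 on the minus strand of GRCh37, duplex (1) exon 4 at chr9:16583000-16583018, duplex (2) exon 6 at chr9:16436834-16436852 and duplex (3) exon 7 at chr9:16419045-16419063. In the GENCODE transcripts each of these cores was found in BNC2 only, the core of NC siRNA in no gene, and no core in any of the 10 genes. Only exact matches of the whole core were searched, so effects of the duplexes through partial matches were not tested.

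The libraries held 16093978 to 18246254 counts on genes. The first principal component separated the siRNA groups and held 92.1% of the variance. BNC2 itself lay between 51.5 and 65.6 CPM (read counts scaled to the library total and edgeR's TMM factors) with NC siRNA and between 35.5 and 41.6 CPM with BNC2 siRNA, which left 64.7% of the control level. Epithelial markers were low and none passed the filter on low counts, with a sum over 8 genes of 0.843 to 1.47 CPM with NC siRNA and 1.28 to 1.86 CPM with BNC2 siRNA, and EPCAM and ESRP1 had 0 counts in each library. ESRP2 was higher with BNC2 siRNA, at 13, 23 and 17 counts against 8, 7 and 2, and CLDN4 lower, at 0 counts in each library against 5, 2 and 4. The 7 leukocyte and endothelial markers summed to 1.99 to 2.59 CPM with NC siRNA and 0.903 to 1.28 CPM with BNC2 siRNA. Of these, CD14 alone was tested and fell from 1.70 to 0.635 CPM (log2 fold change -1.42, edgeR adjusted p = 5.23e-04), and the means of the other 6 were at most 0.296 CPM. Of 8 mesenchymal markers 6 rose and 1, ZEB2, fell (log2 fold change -1.22, edgeR adjusted p = 1.77e-10), so that 87.5% were called, against 72.9% of all genes tested (36.6% as risen). Their sums, mostly VIM, were 4380 to 4467 CPM with NC siRNA and 5256 to 5480 CPM with BNC2 siRNA, and the part of these markers in the results was not tested.

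BNC2 knockdown down-regulated 9 of the 10 genes and up-regulated 1, DUSP5. The call of DUSP5 was lost under 5 of 14 alternative analyses. The falls ran from DUSP4, which kept 27.9% of its control level, through ETV5 (42.5%) and DUSP6 (51.9%) to SPRY2 (81.9%). In each of the 9 genes that fell, every BNC2 siRNA library lay below every NC siRNA library. Summed over the 10 genes, the level went from between 630 and 651 CPM with NC siRNA to between 386 and 396 CPM with BNC2 siRNA. A gene was called if edgeR's quasi-likelihood p, adjusted after Benjamini and Hochberg over 12186 genes, did not exceed 0.05. Of all genes tested 72.9% were called, 36.6% upwards and 36.2% downwards. The groups did not overlap in 74.9% of all genes tested, with BNC2 siRNA lower in 37.2% and higher in 37.7%. All 10 genes passed the filter on low counts, and their median log2 fold change was -0.53, against 0.00 (0.0014 before rounding) over all genes tested. The median absolute log2 fold change was 0.53, against 0.44 over all genes tested. The 10 genes were chosen with earlier results of these data known, so these contrasts are a description and not a test. RNA was taken from whole cultures, so fewer cells expressing a gene and less of its RNA per cell cannot be told apart.

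**Figure D1:**
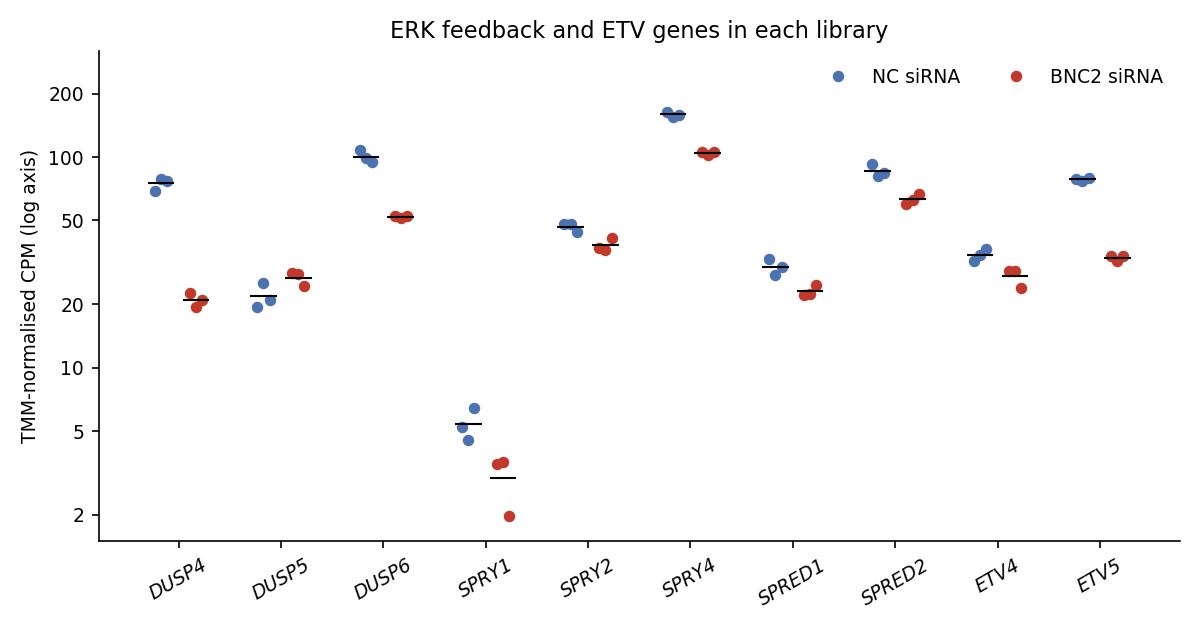
TMM-normalised CPM on a log axis for the 10 genes in each NC siRNA (blue) and BNC2 siRNA (red) library, with points for libraries and black lines for group means (n = 3). The groups are apart in each gene but DUSP5, and DUSP4 shows the widest gap, from 75.1 to 21.0 CPM.

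Of the ERK phosphatases, DUSP4, on chromosome 8 of GRCh37 from 29190581 to 29208201, fell most. It stood at 69.3, 78.6 and 77.2 CPM with NC siRNA and at 22.5, 19.5 and 20.9 CPM with BNC2 siRNA. The groups were thus far apart, and the log2 fold change came to -1.84 (SE, the standard error, 0.08; adjusted p = 4.86e-12). Only 5.00% of the genes tested had a larger absolute log2 fold change. DUSP6, on chromosome 12 from 89741012 to 89746278, is a phosphatase selective for ERK. Its level was 109, 98.7 and 94.3 CPM with NC siRNA and 52.8, 51.3 and 52.6 CPM with BNC2 siRNA. The BNC2 siRNA libraries lay close together and below each control, with a log2 fold change of -0.95 (SE 0.07, adjusted p = 1.92e-09).

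DUSP5, on chromosome 10 from 112257665 to 112271291, went the other way. It stood at 19.4, 25.3 and 20.9 CPM with NC siRNA and at 28.0, 27.8 and 24.4 CPM with BNC2 siRNA. The groups overlapped, since NC siRNA replicate 2 was above BNC2 siRNA replicate 3. The rise was small (log2 fold change 0.29, SE 0.10, adjusted p = 0.0175), and 65.1% of the genes tested changed by more. It was no longer called with library totals as the only scaling (log2 fold change 0.21, adjusted p = 0.0704), nor without NC siRNA replicate 1 (0.19, adjusted p = 0.0941), NC siRNA replicate 3 (0.24, adjusted p = 0.0732), BNC2 siRNA replicate 1 (0.26, adjusted p = 0.0574) or BNC2 siRNA replicate 2 (0.27, adjusted p = 0.0598).

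All 3 Sprouty genes fell. SPRY4, on chromosome 5 from 141689992 to 141706020, had 164, 155 and 159 CPM with NC siRNA and 106, 102 and 106 CPM with BNC2 siRNA. This was the tightest of the Sprouty falls, with a log2 fold change of -0.61 (SE 0.06, adjusted p = 4.98e-08). SPRY2, on chromosome 13 from 80910111 to 80915261, had 48.2, 47.9 and 44.0 CPM with NC siRNA and 37.2, 36.2 and 41.4 CPM with BNC2 siRNA. The gap between the groups was narrow, since BNC2 siRNA replicate 3 came close to NC siRNA replicate 3, and the log2 fold change was -0.29 (SE 0.08, adjusted p = 0.00254). SPRY1, on chromosome 4 from 124317950 to 124324915, was the weakest of the 10 genes, with counts of 93, 81 and 107 with NC siRNA and of 60, 63 and 31 with BNC2 siRNA. In CPM these were 5.24, 4.54 and 6.44 against 3.49, 3.55 and 1.97, so BNC2 siRNA replicate 3 was the lowest. Its log2 fold change of -0.83 had the largest SE of the 10 genes, 0.21 (adjusted p = 0.00201), and lay between -0.96 and -0.62 when 1 library was left out at a time.

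Both SPRED genes fell. SPRED2, on chromosome 2 from 65537985 to 65659771, had 92.5, 81.4 and 83.7 CPM with NC siRNA and 60.0, 62.6 and 66.7 CPM with BNC2 siRNA (log2 fold change -0.45, SE 0.07, adjusted p = 1.97e-05). SPRED1, on chromosome 15 from 38545037 to 38649450, had 32.7, 27.7 and 30.1 CPM with NC siRNA and 22.0, 22.3 and 24.7 CPM with BNC2 siRNA (log2 fold change -0.39, SE 0.09, adjusted p = 7.89e-04). In both genes the highest BNC2 siRNA library stayed below the lowest control. The median absolute change over all genes tested lay between these falls, so they were of ordinary size for this comparison.

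The ETV factors differed in the size of their fall. ETV5, on chromosome 3 from 185764103 to 185828107, had 78.4, 77.2 and 79.6 CPM with NC siRNA and 33.9, 32.2 and 33.8 CPM with BNC2 siRNA. Replicates were close in both groups, and the log2 fold change was -1.24 (SE 0.07, adjusted p = 4.87e-11), with 12.2% of the genes tested changing by more. ETV4, on chromosome 17 from 41605212 to 41656988, had 31.9, 34.2 and 36.5 CPM with NC siRNA and 28.8, 28.8 and 23.9 CPM with BNC2 siRNA. It fell less (log2 fold change -0.33, SE 0.09, adjusted p = 0.00356), and 61.2% of the genes tested changed by more.

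**Figure D2:**
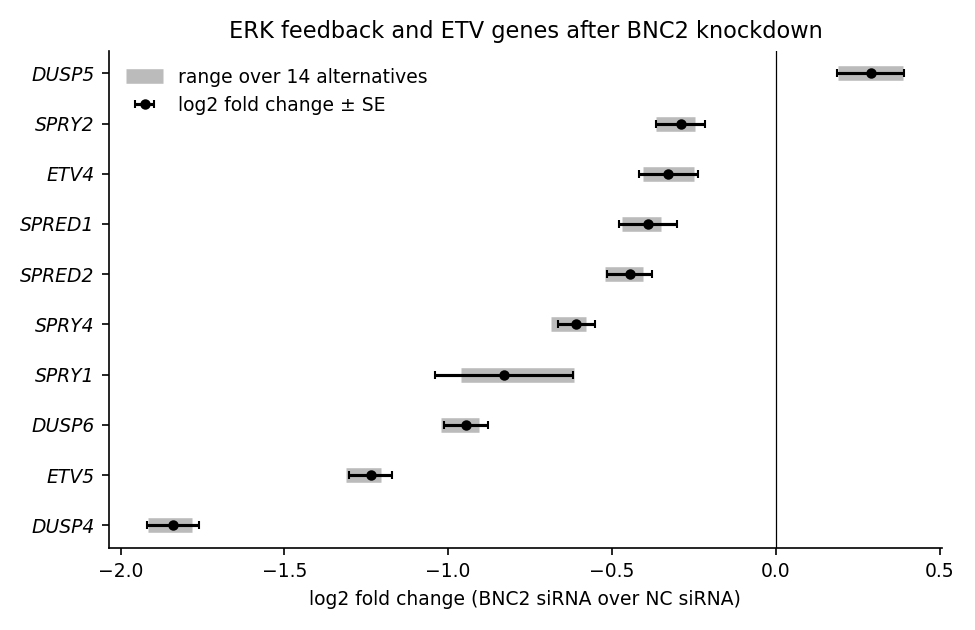
Log2 fold change (BNC2 siRNA over NC siRNA) of the 10 genes, with points for the edgeR estimates, bars for the SE and grey bands for the range over 14 alternative analyses. Each band lies on the same side of 0 as its point, from DUSP4 at -1.84 to DUSP5 at 0.29.

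Whether genes of 1 family changed unequally was tested on the log2 ratio of each pair within a library, which does not depend on how libraries are scaled. With 3 libraries a group, the two-sided exact permutation test cannot go below 0.1, and over 8 pairs the smallest adjusted p-value reached was 0.16, so no pair could pass. The largest shift was DUSP4 over DUSP5, whose log2 ratio went from 1.78 ± 0.13 (SD, n = 3) to -0.35 ± 0.15 (SD, n = 3), a difference of -2.13 with a SE of 0.12 (exact permutation p = 0.1). DUSP4 thus went from the higher to the lower of the pair in CPM. The ratio of DUSP4 to DUSP6 moved by -0.90 (SE 0.12) and that of DUSP5 to DUSP6 by 1.24 (SE 0.17). ETV4 over ETV5 moved by 0.90 (SE 0.11) and SPRY2 over SPRY4 by 0.32 (SE 0.07). In these 5 of the 8 pairs the libraries of the groups did not overlap (exact permutation p = 0.1 each), which is no sign of a particular pair, since the groups were apart in 74.9% of single genes and the share among other gene pairs was not computed. In SPRED1 over SPRED2 the groups overlapped, with a difference of 0.06 (SE 0.03, exact permutation p = 0.2). The pairs with SPRY1 also overlapped, with differences of -0.58 (SE 0.38) against SPRY2 and -0.27 (SE 0.32) against SPRY4. When 1 library was left out at a time, these differences lay between -0.77 and -0.25 against SPRY2 and between -0.43 and 0.019 against SPRY4.

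Levels were compared between genes per length, as counts per kilobase of the GENCODE canonical transcript scaled to the same total in each library (TPM). With NC siRNA, SPRY4 was highest at 89.9 ± 5.40 TPM (SD, n = 3), followed by DUSP6 at 76.7 ± 8.24, SPRY2 at 56.5 ± 4.46, ETV5 at 53.1 ± 1.72 and SPRED2 at 52.6 ± 5.28 TPM. The libraries of SPRY2, ETV5 and SPRED2 overlapped between neighbours, so their order was not resolved. Below them stood ETV4 (40.4 ± 1.41 TPM), DUSP4 (37.3 ± 1.52), DUSP5 (24.4 ± 3.16), SPRED1 (11.5 ± 1.26) and SPRY1 (5.73 ± 0.929), each apart from its neighbour. With BNC2 siRNA, SPRY4 was still highest at 59.1 ± 2.00 TPM and SPRY1 lowest at 3.19 ± 0.898 TPM. ETV5 moved from rank 4 to rank 7 at 22.6 ± 0.866 TPM, and DUSP5 from rank 8 to rank 6 at 29.9 ± 1.66 TPM. The neighbours DUSP6 and SPRED2, and ETV4 and DUSP5, overlapped in this group.

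The make-up of the families changed in these terms. DUSP4 made up 24.8%, 27.4% and 28.8% of the summed level of the 3 phosphatase genes with NC siRNA and 13.5%, 12.1% and 13.4% with BNC2 siRNA. DUSP5 went from 15.6%, 19.8% and 17.4% to 37.8%, 38.8% and 35.0%. DUSP6 remained the largest share in every library, at 55.4 ± 3.67% (SD, n = 3) and 49.7 ± 1.60% (SD, n = 3), while the sum of the 3 genes fell from 138 ± 7.68 to 80.2 ± 0.577 TPM. Of the ETV pair, ETV5 had the larger share in each NC siRNA library and ETV4 in each BNC2 siRNA library. There ETV4 made up 59.8%, 61.0% and 55.3%. This order rests on the canonical transcript lengths, 2335 bases for ETV4 and 4082 for ETV5, and no other lengths were tried. In CPM, ETV5 stayed above ETV4 in each BNC2 siRNA library, at 33.9, 32.2 and 33.8 against 28.8, 28.8 and 23.9. In the SPRED pair the groups overlapped, with SPRED1 at 17.9 ± 0.422% (SD, n = 3) with NC siRNA and 18.5 ± 0.314% (SD, n = 3) with BNC2 siRNA. Among the Sprouty genes, SPRY4 went from 59.1 ± 0.897% to 54.4 ± 0.889% and SPRY2 from 37.1 ± 1.57% to 42.6 ± 1.82%, without overlap of the groups. Shares are a description and were not tested separately from the ratios.

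**Figure D3:**
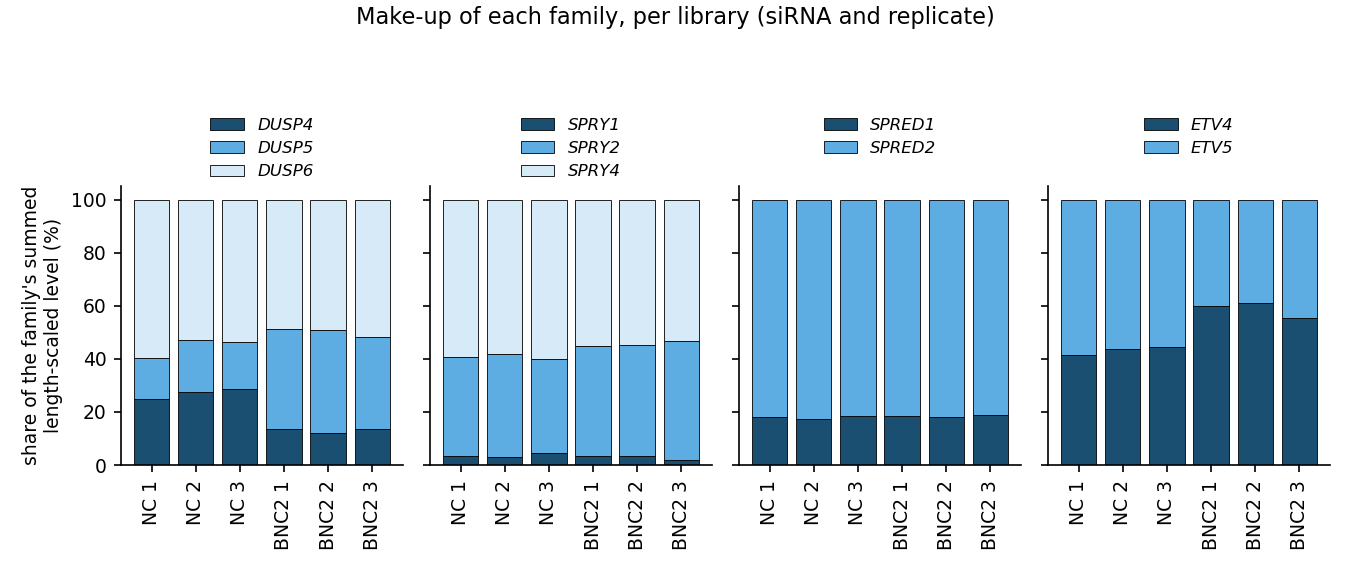
Share of each gene in the summed length-scaled level of its family (in percent), as stacked bars for each of the 6 libraries named by siRNA and replicate. The share of DUSP5 rises from 17.6% to 37.2% on average and that of ETV4 from 43.2% to 58.7%, and that of SPRED1 lies at 17.9% and 18.5%.

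Promoter windows from 250 bases before to 50 bases after the start site were read from RefSeq (GRCh38.p14) for 6 of the 10 genes: DUSP6, SPRY1, SPRY2, SPRY4, SPRED1 and SPRED2. Those of DUSP4, DUSP5, ETV4 and ETV5 were not used here. Genes of this group are known targets of capicua (CIC), a repressor that ERK signalling relieves, and of ETS factors. The windows were therefore searched on both strands for a shortened CIC motif (TGAATGA or TGAATGG), the ETS core (CCGGAA) and the AP-1 motif (TGANTCA). These motifs do not contain each other. The matches are shown in lower case on the gene's strand, with the motif in capitals.
DUSP6: ccgtttttgTGAATGAcaaactcatt
SPRY2: cctgcctcctCCGGAAaggcgagggc
The DUSP6 match to the shortened CIC motif begins at position -133 from the start site and its window lies at chr12:89746395-89746420 (GRCh37, minus strand). The SPRY2 match to the ETS core begins at position -142, at chr13:80915388-80915413 (GRCh37, minus strand). The shortened CIC motif was thus in 1 of 6 windows, against 7.04% of 27305 promoters. The ETS core was in 1 of 6, against 17.6%, and the AP-1 motif in none of the 6, against 7.76%. A match is a sequence description, and these counts are too few to set the genes apart from other promoters.

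The pathway lists that follow are to be read against all genes tested, of which 72.9% were called, 36.6% as risen and 36.2% as fallen, so that a mix of directions is the background. Among the ligands and receptors that feed the cascade, 9 of 19 growth factor ligand genes were tested, of which 4 rose and 5 fell (median log2 fold change -0.21). PDGFA (log2 fold change -1.85, adjusted p = 5.39e-10) and HBEGF, an EGF receptor ligand (-1.29, adjusted p = 8.17e-11), fell, whereas the ERBB ligand NRG1 (1.32, adjusted p = 3.57e-11) and PDGFC (1.29, adjusted p = 6.34e-10) rose. Without NC siRNA replicate 1, 3 ligands were called as fallen. Of 12 receptor tyrosine kinase genes 10 were tested, of which 4 rose and 3 fell, so that 70.0% were called, close to the 72.9% of all genes. IGF1R (1.79, adjusted p = 4.74e-12), AXL (1.60, adjusted p = 4.57e-13) and ERBB2 (0.57, adjusted p = 5.92e-07) rose and PDGFRA fell (-0.97, adjusted p = 8.19e-06). Only 1 receptor was called as fallen without BNC2 siRNA replicate 1 or without BNC2 siRNA replicate 2.

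Within the cascade itself, 21 of 22 genes were tested, of which 9 rose, 5 fell and 7 did not pass the test, with a median log2 fold change of 0.09. The share called, 66.7%, was near the 72.9% of all genes. The largest changes were those of the scaffold gene KSR1 (log2 fold change -1.62, adjusted p = 6.30e-10), of RPS6KA3, a kinase phosphorylated by ERK (1.42, adjusted p = 4.01e-11), of LAMTOR3, a MEK scaffold on late endosomes (-1.06, adjusted p = 1.16e-07), and of BRAF (1.05, adjusted p = 7.94e-08).

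Other negative regulators were grouped by where they act. Of 7 further MAP kinase phosphatase genes 6 were tested, of which 4 fell and 1 rose (83.3% called, against 72.9% of all genes). DUSP1 (log2 fold change -1.07, adjusted p = 3.05e-07), DUSP8 (-0.89, adjusted p = 3.60e-05) and DUSP7, like DUSP6 a cytoplasmic ERK phosphatase (-0.44, adjusted p = 5.02e-06), fell, and DUSP10 rose (0.63, adjusted p = 0.00116). Of 11 further inhibitors of receptors, RAS or RAF 10 were tested, of which 6 rose and 3 fell (90.0% called, against 72.9% of all genes), with a median of 0.60. The genes of the RAS GTPase-activating proteins RASA2 (1.05, adjusted p = 2.13e-07) and RASAL2 (1.03, adjusted p = 2.50e-10) and of the ubiquitin ligase CBL (0.87, adjusted p = 1.51e-07) rose. IL17RD, an inhibitor of FGF signalling that is itself induced by it, fell (-1.22, adjusted p = 9.09e-06). The remaining paralogs, named outside the rule, were SPRED3, which rose from 3.75 to 5.38 CPM (0.51, adjusted p = 0.0176), and SPRY3, which had 0 counts in each library. SPRED3 was no longer called without NC siRNA replicate 2 (0.41, adjusted p = 0.0835) or without BNC2 siRNA replicate 3 (0.34, adjusted p = 0.115).

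Of 16 other genes that ERK induces 14 were tested, of which 7 fell and 4 rose, with a median log2 fold change of -0.41. The share called was 78.6%, near the 72.9% of all genes. EGR1 fell from 17.4 ± 0.779 to 4.07 ± 0.637 CPM (SD, n = 3, log2 fold change -2.09, adjusted p = 3.77e-10). The adaptor gene SH2B3 (-1.98, adjusted p = 2.83e-13), the immediate early gene IER3 (-1.82, adjusted p = 2.80e-12) and the ephrin receptor gene EPHA4 (-1.75, adjusted p = 2.02e-10) fell in similar measure. The 4 that rose, named after their values had been seen, were FOS (0.95, adjusted p = 2.15e-04), FOSL1 (0.56, adjusted p = 1.16e-07), PHLDA1 (0.56, adjusted p = 7.37e-08) and MYC (0.47, adjusted p = 4.95e-06).

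Of 16 other ETS genes 14 were tested, and all of these were called, 8 as risen and 6 as fallen, against 72.9% called among all genes, 36.6% as risen and 36.2% as fallen. When 1 library was left out at a time, 7 to 8 were called as risen and 4 to 6 as fallen, so not every call was kept. ETV1, the other PEA3-group member besides ETV4 and ETV5, rose from 11.7, 13.4 and 12.6 to 28.3, 25.7 and 28.3 CPM (n = 3, log2 fold change 1.12, adjusted p = 1.30e-08). The largest fall was that of FLI1 (-2.19, adjusted p = 1.19e-11), and ETV3, which encodes a repressor, fell too (-1.16, adjusted p = 2.81e-07), whereas the SRF cofactor gene ELK4 rose (1.20, adjusted p = 7.62e-09). CIC fell slightly (-0.35, adjusted p = 7.62e-05) and its partner genes ATXN1 (0.80, adjusted p = 9.45e-06) and ATXN1L (0.31, adjusted p = 0.00199) rose.

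**Figure D4:**
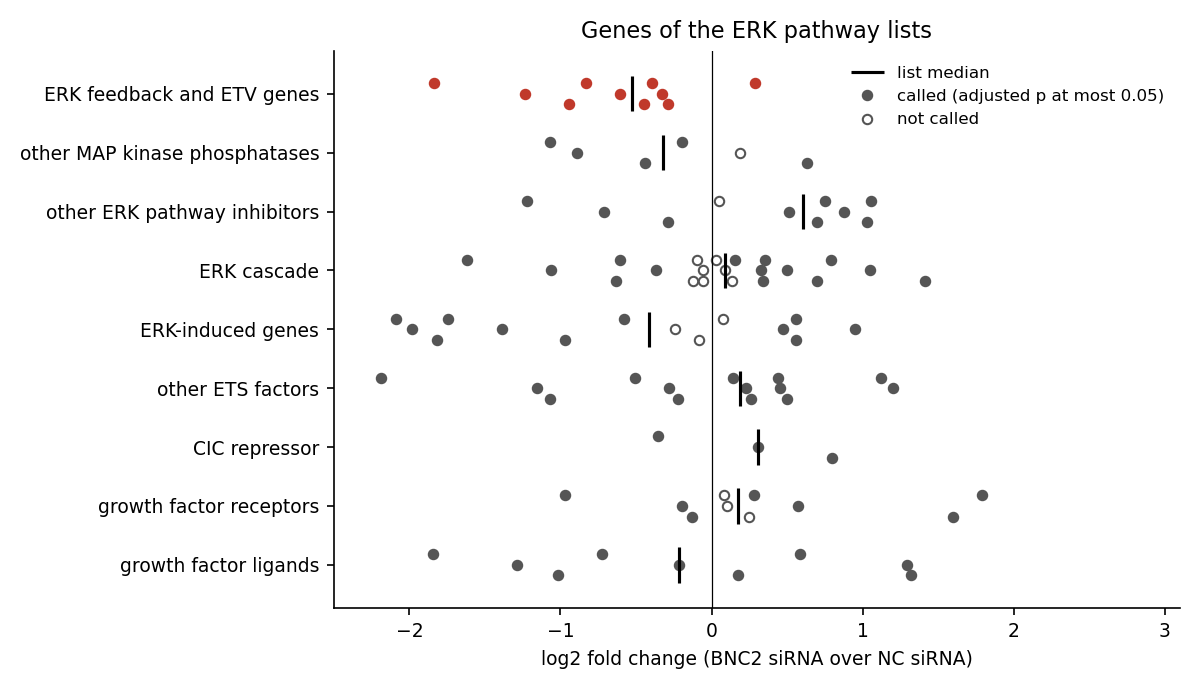
Log2 fold change (BNC2 siRNA over NC siRNA) of the genes tested in each pathway list, with filled points for called genes, open points for genes not called and black bars for list medians. The 10 feedback regulators and ETV factors (red) have a median of -0.53, the other ERK pathway inhibitors one of 0.60.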

How the data were processed

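The authors aligned single-end reads to hg19 with STAR 2.6.1d and the iGenomes UCSC annotation, and deposited raw counts per gene, which hold uniquely mapped reads on 1 gene of the reverse strand. Reads assigned to no gene (37.7% to 41.1% of a library) were left out. Genes over 1 CPM in at least 3 libraries were tested (12186 genes) with edgeR 4.0.16 (R 4.3.3): TMM scaling, quasi-likelihood test, Benjamini-Hochberg adjustment, called where the adjusted value did not exceed 0.05. The study used edgeR's likelihood ratio test, tried here as an alternative besides DESeq2 1.42.0, other scalings and filters, a replicate block, counts of both strands and leaving out each library. The standard error is the log2 fold change divided by the square root of F. The 10 genes and the pathway lists were chosen with earlier results of these data known. From each pathway list, the rule named at most 4 genes, the largest changes among genes called, with groups apart and at least 5 CPM in the higher group, and all of the CIC list. Genes named beyond this rule are said to be so in the text or, like CD14, are markers. Ratios of paralogs used counts plus 0.5. Positions and transcript lengths come from GENCODE release 44 on GRCh37, the assembly of hg19, and lengths covered 77.0% of genes and at least 92.6% of counts. Python 3.11.15 with pandas 2.3.3 was used. The study describes the 3 libraries of a group as biological replicates, and the labels say no more, so p-values measure the spread between these libraries. Precision covers counting error and that spread, and 3 counts correspond to 0.168 to 0.191 CPM.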

Additional observations from a re-analysis of the deposited data

How the results depend on the processing

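The falls of DUSP4, DUSP6, SPRY1, SPRY2, SPRY4, SPRED1, SPRED2, ETV4 and ETV5 kept their direction and their call under each of the 14 alternatives, as did that of BNC2. Their highest adjusted p-values were 0.0246 for SPRY2 and 0.0244 for ETV4. The number of these genes called as risen, 1, was 0 under scaling by total counts only and 0 to 1 over the fits that omit a library (the gene is DUSP5). Receptors called as fallen numbered 1 to 3 and ligands called as fallen 3 to 5 over the same fits, and the cause was not tested. The difference of SPRY1 over SPRY4 lay between -0.43 and 0.019, and so turned without BNC2 siRNA replicate 3. Replicate numbers are shared between the groups, and the deviations of same-numbered libraries correlated at -0.29, -0.10 and -0.17. With 3 libraries a group this cannot decide whether same-numbered libraries were prepared together, and the labels do not say. With a replicate block 8400 genes were called, against 8879, and no call of the 10 genes changed. Without a filter on low counts 53.3% of 18121 genes were called. SPRY1, at 31 to 107 counts, is the gene where depth limits precision most.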

Other observations

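Reads on the strand opposite to each gene were not part of the comparison. For the 10 genes they made up between 0.219% (SPRED1) and 1.68% (ETV4) of the reads on both strands, against a median of 0.775% over the genes tested. DUSP4 had 10, 14 and 8 such reads with NC siRNA and 0, 4 and 2 with BNC2 siRNA. Scaled by library totals or by TMM factors, the opposite-strand reads of DUSP4, DUSP6, SPRY2, ETV4 and ETV5 were lower in each BNC2 siRNA library than in each NC siRNA library, as were those of 23.1% of the 12186 genes tested. Those of SPRY4 were lower without overlap only by library totals, with 8 reads both in NC siRNA replicate 2 and in BNC2 siRNA replicate 1, and overlapped with TMM factors. By library totals, 27.8% of the genes tested were lower without overlap, and with TMM factors 23.1%. At these counts no size of change is given, and nothing particular to the 10 genes is read from the number that separate.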
